A study of Mus musculus with 12 samples.

Results

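The 8 genes of megalin- and cubilin-dependent protein uptake (Lrp2, Cubn, Amn, Dab2, Clcn5, Ocrl, Fcgrt and Lrpap1) were followed through RNA sequencing of whole mouse kidneys. They were picked by name, by matching the NCBI Gene number of each row to a list of genes of proximal tubule protein uptake, and all 8 were among the 27179 genes listed. Each reached at least 1 TPM (a level corrected for gene length and depth that sums to 1000000 in every library) in at least 3 of the 12 libraries, so all 8 were among the 14972 genes tested. The question was whether loss of FAN1, a nuclease that repairs DNA interstrand crosslinks, changed the RNA of this uptake pathway in kidneys injured by cisplatin, a crosslinking drug.

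The 12 libraries fell into 4 groups of 3. The mice were wild-type or FAN1KO (γGT1-Cre;Fan1-/-), 8 to 12 weeks old. The labels call the strain background mixed, whereas the methods of the study describe mice crossed back to 129Sv-Elite. Cisplatin was given into the peritoneum at 2 mg/kg once a week for 5 weeks, and control mice of each genotype received saline. The Cre is driven by the promoter of Ggt1, so the deletion was directed to proximal tubule cells while the RNA came from the whole kidney. Whether the wild-type mice carried the Cre was not stated. The labels give 3 samples to a group without saying how the animals were related. The p-values set differences between groups against the spread between samples within groups, which the limma model pools over all 12 libraries.

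Proximal tubule cells take up nearly all protein that passes the glomerular filter. Megalin (the product of Lrp2) and cubilin (Cubn) are giant receptors of the brush border that bind albumin, vitamin carriers, hormones and many small proteins. Cubilin has no membrane span of its own and reaches the surface with amnionless (Amn). The chaperone RAP (Lrpap1) escorts megalin through the endoplasmic reticulum, the adaptor Dab2 links the tail of megalin to clathrin, and the exchanger ClC-5 (Clcn5) and the phosphatase OCRL (Ocrl) act in the endosomes that the cargo enters. The neonatal Fc receptor FcRn (Fcgrt) pairs with β2-microglobulin and returns albumin and IgG from the endosome. Loss of CLCN5 or OCRL in people causes Dent disease and Lowe syndrome, in which small proteins are lost in the urine.

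The genes lie apart in the genome, except that Lrp2 and Cubn share a chromosome and Clcn5 and Ocrl are both on the X. In the GRCm38 build, Lrp2 is at chr2:69424335-69586029 and Cubn at chr2:13276338-13491876, both on the minus strand. Lrpap1 is at chr5:35091490-35105699 on the minus strand, Fcgrt at chr7:45092993-45103822 on the minus strand, Amn at chr12:111271096-111276426 on the plus strand and Dab2 at chr15:6299788-6440715 on the plus strand. Clcn5 is at chrX:7153810-7319358 on the minus strand and Ocrl at chrX:47912418-47966428 on the plus strand. An exon of the predicted gene Gm13270 overlaps an exon of Cubn, and an exon of Gm18888 overlaps one of Dab2. Whether the reads were counted by strand was not stated, so reads of these overlaps cannot be told apart.

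The starts of the 3 genes that fell together under cisplatin, and of Fcgrt, which was not called lower between the genotypes, are shown as RefSeq gives them for GRCm38.p6, on the strand of the gene, from 250 bases before the annotated start to 50 after it. Capitals mark matches, on either strand, to 7 short motifs: the GC box GGGCGG, the E-box CACGTG, the HNF1 half-site GTTAAT, the CRE half-site TGACGT, the HNF4 core CAAAGTCC, the TATA box TATAAA and the CCAAT box. The Lrp2 window is chr2:69585980-69586279, the Cubn window chr2:13491827-13492126, the Lrpap1 window chr5:35105650-35105949 and the Fcgrt window chr7:45103773-45104072.
Lrp2: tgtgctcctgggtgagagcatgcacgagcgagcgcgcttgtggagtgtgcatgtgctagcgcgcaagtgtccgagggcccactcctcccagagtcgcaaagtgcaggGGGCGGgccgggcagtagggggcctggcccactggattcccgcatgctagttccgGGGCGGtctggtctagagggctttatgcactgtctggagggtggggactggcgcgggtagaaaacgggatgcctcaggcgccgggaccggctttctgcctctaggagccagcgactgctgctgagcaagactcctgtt
Cubn: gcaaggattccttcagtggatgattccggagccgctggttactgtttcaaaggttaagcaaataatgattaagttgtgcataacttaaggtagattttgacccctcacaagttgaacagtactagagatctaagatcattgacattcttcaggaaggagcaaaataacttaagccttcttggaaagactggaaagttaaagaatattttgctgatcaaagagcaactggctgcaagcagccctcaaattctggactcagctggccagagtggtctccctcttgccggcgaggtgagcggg
Lrpap1: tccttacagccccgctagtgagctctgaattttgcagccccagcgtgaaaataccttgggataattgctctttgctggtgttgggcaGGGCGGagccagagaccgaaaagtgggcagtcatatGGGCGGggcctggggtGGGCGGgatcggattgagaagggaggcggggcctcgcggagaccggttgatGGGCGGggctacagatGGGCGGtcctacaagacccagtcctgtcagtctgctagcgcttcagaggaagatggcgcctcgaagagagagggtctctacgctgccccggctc
Fcgrt: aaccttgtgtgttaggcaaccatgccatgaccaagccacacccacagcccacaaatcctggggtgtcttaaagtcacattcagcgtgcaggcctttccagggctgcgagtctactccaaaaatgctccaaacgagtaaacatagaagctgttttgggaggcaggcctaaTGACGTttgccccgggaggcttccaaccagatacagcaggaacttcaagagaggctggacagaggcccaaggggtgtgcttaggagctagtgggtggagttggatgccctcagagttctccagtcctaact
Lrp2 held 2 GC boxes, Lrpap1 held 5, and the Cubn window held none of the 7 motifs. Fcgrt held 1 CRE half-site. Of the members not shown, Ocrl held 2 GC boxes, Amn held 1, and Clcn5 held 1 at 1 annotated start and 0 at the other. Dab2 held 0 at both of its starts. A GC box thus did not set the genes that fell apart from the rest. The GC box was in 35.7% of the 32851 mouse promoter windows of this length and the CRE half-site in 7.51%. The window of Cubn was 44.3% G or C with 5 CpG pairs, against 65.0% and 20 in Lrp2, 61.3% and 18 in Lrpap1, 53.3% and 5 in Fcgrt, and a median of 52.7% G or C over all windows. The 3 genes that fell thus shared none of these letters across all 3 windows.

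Libraries held 37202106 to 82947444 reads, as recovered from the steps of the TPM values, and the lowest count behind any value of a member was 720 reads. Fan1 itself was low everywhere, at 1.98 to 3.80 TPM in wild-type and 1.17 to 2.28 in FAN1KO kidneys under saline, and at 2.33 to 3.57 and 1.55 to 3.51 under cisplatin, so its level did not separate the genotypes (adjusted p = 0.593 and 0.604, limma), and where the deleted part lies was not examined. Proximal tubule markers were abundant in every library, with a summed level of 9434 to 26682 TPM over 20 genes. In each group 1 library had high RNA of Y-linked genes (mean log2(TPM + 1) of 3.46 to 3.93) and the other 2 had low (0.0061 to 0.10): number 3 of wild-type saline, number 1 of FAN1KO saline, number 1 of wild-type cisplatin and number 3 of FAN1KO cisplatin.

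Under saline, the order of the mean levels in wild-type kidneys was Lrpap1, Lrp2, Amn, Dab2, Fcgrt, Cubn, Clcn5 and Ocrl. Lrpap1 averaged 324 ± 22.2 TPM (SD, n = 3), Lrp2 257 ± 48.5, Amn 249 ± 32.9, Dab2 162 ± 12.9, Fcgrt 154 ± 11.6, Cubn 65.6 ± 21.3, Clcn5 11.1 ± 1.42 and Ocrl 7.11 ± 1.49. Lrp2 and Amn overlapped, as did Dab2 and Fcgrt, so these neighbours did not differ beyond their spread, and the other neighbours did not overlap. Clcn5 and Ocrl, the endosomal exchanger and phosphatase, stood far below the surface receptors. The receptor Cubn lay well below its partner Amn in all 12 libraries, with a Cubn to Amn ratio of 0.272 ± 0.112 in wild-type saline kidneys.

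**Figure D1:**
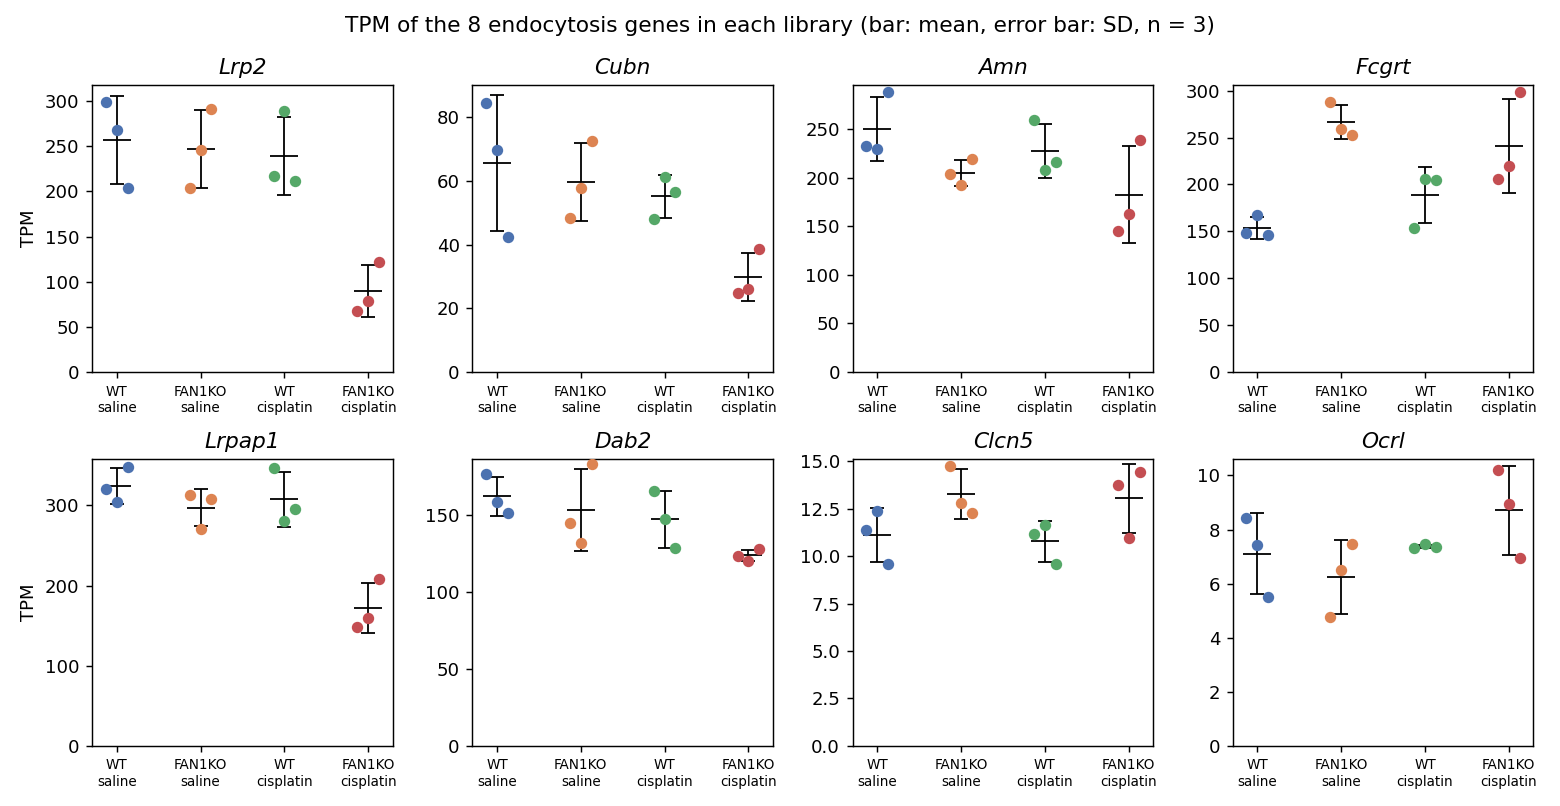
TPM of each of the 8 genes (y axis, starting at 0, a separate scale for each panel) in every library of the 4 groups (x axis). Points are libraries, the horizontal bar is the mean and the error bar the SD of 3. Lrp2, Cubn and Lrpap1 were lowest in the 3 FAN1KO cisplatin kidneys, and Fcgrt was higher in FAN1KO than in wild-type kidneys under saline.

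Under cisplatin, FAN1KO kidneys had less RNA of megalin, of its chaperone RAP and of cubilin than wild-type kidneys, while the other 5 genes did not pass the test. Lrp2 was at 217, 289 and 211 TPM in the wild-type and at 67.6, 78.3 and 122 TPM in the FAN1KO kidneys. Every FAN1KO kidney was below every wild-type kidney, and the mean decreased by 62.6% (log2 fold change -1.44, SE 0.23, adjusted p = 0.00271, limma). RAP, the chaperone of megalin, fell with it. Lrpap1 was at 346, 281 and 296 TPM in the wild-type and at 148, 159.8 and 208 TPM in the FAN1KO kidneys. The groups did not overlap, and the mean decreased by 44.1% (log2 fold change -0.85, SE 0.14, adjusted p = 0.00261, limma). Cubn was at 48.0, 61.3 and 56.4 TPM in the wild-type and at 24.8, 26.2 and 38.6 TPM in the FAN1KO kidneys. Here too the groups were apart, and the mean decreased by 45.9% (log2 fold change -0.89, SE 0.25, adjusted p = 0.0308, limma). By the exact permutation test of 3 against 3 kidneys (two-sided) all 3 genes had p = 0.1, the smallest that this design allows. All FAN1KO values below all wild-type values were found for 8.6% of all genes tested.

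The call of Cubn was close to the threshold. Its adjusted p (limma) was 0.0526 without wild-type cisplatin 1, 0.0785 without wild-type cisplatin 2, 0.0690 without wild-type cisplatin 3, 0.122 without FAN1KO cisplatin 1 and 0.101 without FAN1KO cisplatin 2. With the replicate number as a block it was 0.0554. The calls of Lrp2 and Lrpap1 held whichever of the 6 libraries was left out, with adjusted p (limma) of 0.00144 to 0.0144 and 0.00135 to 0.0143. In all, 3 of the 8 genes were called lower and 0 higher. Of all genes tested, 4.37% were called lower and 19.6% higher in this comparison.

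Amnionless, which brings cubilin to the surface, did not pass the test. Amn was at 259, 207 and 216 TPM in the wild-type and at 145, 162 and 239 TPM in the FAN1KO kidneys (log2 fold change -0.35, SE 0.18, adjusted p = 0.174, limma). The groups overlapped through FAN1KO cisplatin 3, the one kidney of its group with high Y-linked RNA, and without it Amn was called lower (adjusted p = 0.0202, limma), as it was with the Y-linked covariate (adjusted p = 0.0308). Dab2, the adaptor, was at 165, 148 and 129 TPM against 124, 120.3 and 128 TPM. Its values did not overlap but lay close, and it was not called (log2 fold change -0.24, SE 0.13, adjusted p = 0.208, limma). Over the processing alternatives the lowest log2 fold change was -0.63 for Amn and -0.53 for Dab2, and Dab2 was called in none of them. Groups that do not overlap, with the FAN1KO values lower, were found for 8.6% of all genes tested.

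The remaining 3 genes had means above those of wild-type kidneys without passing the test. Fcgrt was at 154, 206 and 205 TPM in the wild-type and at 206, 219.7 and 298 TPM in the FAN1KO kidneys (log2 fold change 0.35, SE 0.16, adjusted p = 0.128, limma). Clcn5 was at 11.2, 11.7 and 9.59 TPM against 13.7, 11.0 and 14.4 TPM (log2 fold change 0.25, adjusted p = 0.238, limma). Ocrl was at 7.33, 7.45 and 7.35 TPM against 10.2, 8.95 and 6.96 TPM (log2 fold change 0.20, adjusted p = 0.486, limma). The groups overlapped for all 3, and the differences of Clcn5 and Ocrl turned slightly negative (-0.020 and -0.060) when libraries were scaled by the median ratio of all genes, while that of Fcgrt fell to 0.061 (adjusted p = 0.872, limma). That scaling shifted the middle of the log2 fold changes over the whole transcriptome from 0.24 to -0.0085, so a gene at 0.24 stood at the middle of all genes in this comparison.

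**Figure D2:**
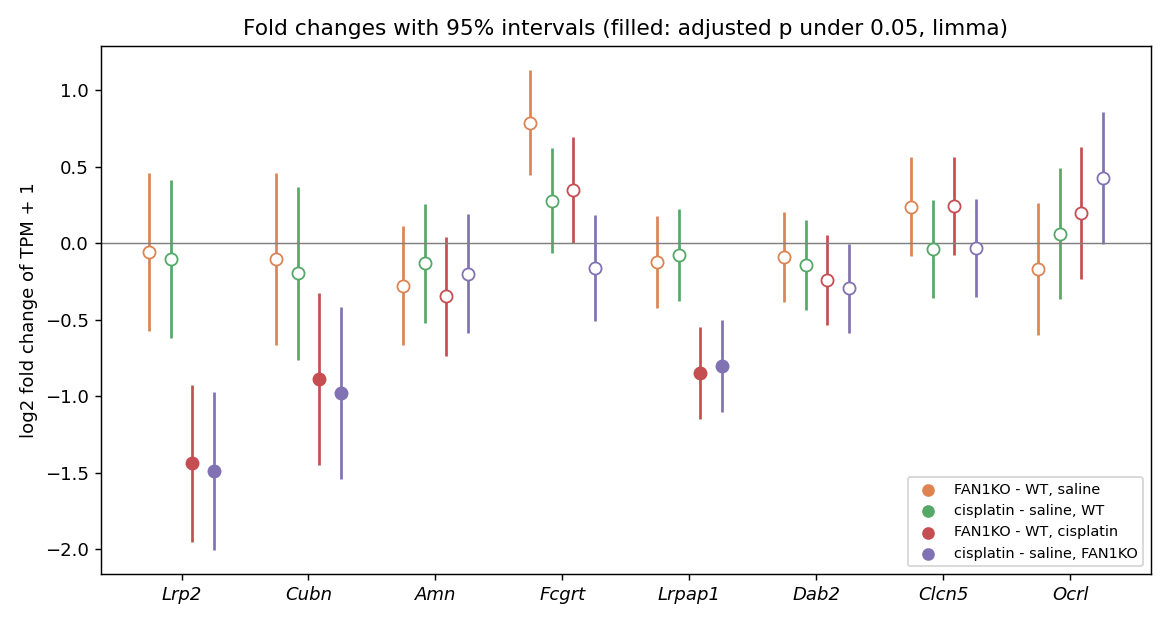
log2 fold change of TPM + 1 (y axis) of each of the 8 genes (x axis) in 4 comparisons, told apart by colour. Circles are estimates and lines their 95% intervals from limma, and filled circles have an adjusted p under 0.05. Filled circles appear for Lrp2, Cubn and Lrpap1 in the 2 comparisons that involve FAN1KO cisplatin kidneys, and the saline estimate of Fcgrt (0.79) is the highest point.

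Cisplatin against saline within FAN1KO kidneys gave the same 3 calls, with FAN1KO cisplatin kidneys shared between both comparisons. Lrp2 was at 204, 246 and 291 TPM under saline, and its mean decreased by 63.8% under cisplatin (log2 fold change -1.49, SE 0.23, adjusted p = 0.0011, limma). Cubn was at 48.5, 57.7 and 72.6 TPM under saline (log2 fold change -0.98, SE 0.25, adjusted p = 0.0121, limma), and this call was lost without FAN1KO cisplatin 1 (adjusted p = 0.0546). Lrpap1 was at 313, 271 and 309 TPM under saline (log2 fold change -0.80, SE 0.14, adjusted p = 0.00163, limma), and with median-ratio scaling its log2 fold change was -1.24. For each of the 3 genes the cisplatin kidneys lay below all saline kidneys, as was so for 7.43% of all genes tested. None of the 8 genes was called higher, and 4.9% of all genes tested were called lower and 34.9% higher.

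The other 5 genes were not called within FAN1KO kidneys. Dab2 was at 145, 132 and 184 TPM under saline (log2 fold change -0.29, adjusted p = 0.0989, limma) and was called lower without FAN1KO saline 2 (adjusted p = 0.0490) and with median-ratio scaling (log2 fold change -0.73, adjusted p = 0.0193). Ocrl was at 4.76, 6.49 and 7.45 TPM under saline (log2 fold change 0.43, adjusted p = 0.102, limma) and was called higher with the Y-linked covariate (adjusted p = 0.00986) and in the 8 libraries with low Y-linked RNA (adjusted p = 0.0300), while with median-ratio scaling its difference was 0.043. Amn, at 203, 192 and 219 TPM under saline, differed by -0.20 (adjusted p = 0.388, limma) and was called lower without FAN1KO cisplatin 3 (adjusted p = 0.0400) and in the 8 libraries with low Y-linked RNA (adjusted p = 0.0102). Fcgrt differed by -0.16 (adjusted p = 0.432, and 0.0382 in those 8 libraries) and Clcn5, at 14.8, 12.8 and 12.3 TPM under saline, by -0.030 (adjusted p = 0.888). Over the processing alternatives the lowest values were -0.64 for Amn, -0.60 for Fcgrt and -0.44 for Clcn5.

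In wild-type kidneys cisplatin left no called difference in these genes. Lrp2 was at 299, 268 and 204 TPM under saline and differed by -0.10 on the log2 scale under cisplatin, with a 95% interval from -0.62 to 0.41. The interval of Cubn ran from -0.76 to 0.37 and that of Lrpap1 from -0.38 to 0.22. The 2 treatment groups overlapped for each of the 8 genes. Of all genes tested, 0% were called lower and 0.0601% higher by limma, and 449 genes, 3%, had an unadjusted p under 0.05. Among the 8 genes, 0 had an unadjusted p that low, with a range from 0.102 (Fcgrt) to 0.812 (Clcn5).

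The effect of cisplatin on Lrp2 differed between the genotypes. The interaction, the log2 change under cisplatin in FAN1KO minus that in wild-type kidneys, was -1.38 (SE 0.33, adjusted p = 0.0390, limma). This call held without FAN1KO cisplatin 3 (adjusted p = 0.0147) and was lost without any one of the other 11 libraries (adjusted p = 0.0519 to 0.0993). It was also lost with the replicate number as a block (adjusted p = 0.0679, limma). The interaction of Lrpap1 was -0.72 (SE 0.19, adjusted p = 0.0526, and 0.0181 without FAN1KO cisplatin 3) and that of Cubn -0.78 (SE 0.36, adjusted p = 0.205), neither called with all libraries. In the 8 libraries with low Y-linked RNA the interactions of Lrpap1 (-0.79, adjusted p = 0.0154), Cubn (-0.93, adjusted p = 0.0239) and Fcgrt (-0.65, adjusted p = 0.0199) were called, and with the Y-linked covariate that of Lrpap1 (adjusted p = 0.00285). In the main fit of all libraries the other 5 genes lay between -0.44 (Fcgrt) and 0.37 (Ocrl), with adjusted p of 0.243 or more. Over the processing alternatives the lowest interactions were -0.78 for Fcgrt, -0.49 for Dab2 and -0.41 for Amn, and Ocrl ranged from 0.063 to 0.49. Of all genes tested, 1.02% had a called negative and 5.22% a called positive interaction. Of the 20 proximal tubule markers, 4 had a called negative interaction and 0 a positive one, with a median of -0.96 against 0.28 over all genes. These 4, named after their values were seen, were Slc34a1 (-1.44), Slc34a3 (-1.96), Slc13a3 (-1.59) and Fbp1 (-1.10).

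Fcgrt, the recycling receptor for albumin and IgG, showed another pattern. Under saline it was at 148, 167 and 146 TPM in the wild-type and at 288, 259 and 253 TPM in the FAN1KO kidneys. Every FAN1KO kidney was above every wild-type kidney, as for 4.62% of all genes, and the mean was 73.3% higher, yet the adjusted p just missed the threshold (log2 fold change 0.79, SE 0.16, adjusted p = 0.0518, limma, exact permutation p = 0.1). With the mean of Y-linked genes as a covariate the adjusted p was 0.0255, and in the 8 libraries with low Y-linked RNA it was 0.0130. It was 0.124 to 0.212 when 1 of the 6 libraries was left out, with a log2 fold change of 0.73 to 0.85. None of the 8 genes was called under saline, where 0.427% of all genes were called lower and 0.341% higher by limma and 8.38% had an unadjusted p under 0.05. Of the 8 genes only Fcgrt had an unadjusted p under 0.05 (0.000408).

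The other 7 genes were not called between the genotypes under saline. Lrp2 differed by -0.055 (95% interval -0.57 to 0.46), Cubn by -0.10 (-0.66 to 0.46), Lrpap1 by -0.12 (-0.43 to 0.18) and Dab2 by -0.089 (-0.38 to 0.20). Amn was lower in all 3 FAN1KO kidneys, at 203, 192 and 219 TPM against 232, 229 and 287 TPM, without passing the test (log2 fold change -0.28, adjusted p = 0.825, limma), a separation found for 7.83% of all genes. Clcn5 was at 14.8, 12.8 and 12.3 TPM against 11.4, 12.4 and 9.58 TPM (adjusted p = 0.796), and Ocrl differed by -0.17 (adjusted p = 1.0).

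Fcgrt lies 19.3 Mb from Fan1 on chromosome 7. Among the 129 genes tested within 5 Mb of Fcgrt, 4 were called between the genotypes under saline, or 3.10%, against 0.992% on the whole chromosome and 0.768% of all genes. They were chosen after their values were seen: Klk1b22 at -4.67, Klk1b27 at 1.40, Klk1b21 at 1.29 and Sergef at -0.49 on the log2 scale. The Klk1b genes belong to a cluster of near-identical kallikreins, so their separate levels are uncertain. Klk1b22 averaged 101 TPM in wild-type and 2.42 TPM in FAN1KO kidneys under saline, and 91.7 and 3.21 TPM under cisplatin. Between the genotypes under cisplatin Klk1b22 differed by -4.40 (adjusted p = 0.000446, limma), Klk1b27 by 0.89 (adjusted p = 0.0387) and Klk1b21 by 0.50 (adjusted p = 0.101), whereas Sergef had the opposite sign, at 0.33 (adjusted p = 0.0237). The part of chromosomal neighbourhood or strain in the level of Fcgrt was not tested.

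B2m encodes β2-microglobulin, the light chain of FcRn and also of the class I molecules that present antigen. It was at 602, 629.7 and 520.1 TPM in wild-type and 239.5, 547 and 530.1 TPM in FAN1KO kidneys under saline. Under cisplatin it was at 519.5, 724 and 590.1 TPM in wild-type and 1099, 911 and 682 TPM in FAN1KO kidneys, with overlapping groups (log2 fold change 0.54, adjusted p = 0.207, limma, and 0.0250 with the Y-linked covariate and 0.0130 in the 8 libraries with low Y-linked RNA). Within FAN1KO kidneys B2m rose by 1.10 on the log2 scale under cisplatin (adjusted p = 0.0146, limma, and 0.0654 without FAN1KO cisplatin 1). The rise was 0.71 without FAN1KO saline 1 (adjusted p = 0.0305), the library with the lowest B2m, and 0.66 with median-ratio scaling (adjusted p = 0.0405), while Fcgrt did not pass the test there.

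The ratios of partners showed how unevenly the genes moved. Lrp2 stood at 0.789 ± 0.211 of Lrpap1 in wild-type cisplatin and at 0.512 ± 0.0686 in FAN1KO cisplatin kidneys. Under saline it was at 0.935, 0.881 and 0.586 in wild-type and 0.653, 0.907 and 0.942 in FAN1KO kidneys. Wild-type saline 3 thus lay within the FAN1KO cisplatin range of 0.456 to 0.588. The ratio of Cubn to Amn was 0.247 ± 0.0564 in wild-type and 0.165 ± 0.0051 in FAN1KO cisplatin kidneys, where its 3 values lay between 0.161 and 0.170. Under saline this ratio was 0.364, 0.305 and 0.148 in wild-type and 0.238, 0.300 and 0.332 in FAN1KO kidneys, so wild-type saline 3 lay below all 3 FAN1KO cisplatin kidneys. The ratio of Lrp2 to Cubn was 4.06 and 4.16 on average in the saline groups of wild-type and FAN1KO mice, 4.32 after cisplatin in wild-type mice and 2.96 ± 0.223 after cisplatin in FAN1KO mice. By mean level, Fcgrt (241 TPM) and Amn (182 TPM) led in FAN1KO cisplatin kidneys, followed by Lrpap1 (172 TPM), Dab2 (124 TPM), Lrp2 (89.4 TPM) and Cubn (29.9 TPM). The values of Fcgrt and Amn, of Amn and Lrpap1 and of Dab2 and Lrp2 overlapped there, so the order of these neighbours is not settled.

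In a whole kidney, fewer proximal tubule cells and less RNA per cell cannot be told apart. Proximal tubule markers fell with megalin. Between the genotypes under cisplatin 12 of 20 were called lower and 0 higher in FAN1KO, with a median log2 fold change of -0.82. Over all genes tested 4.37% were called lower and 19.6% higher, with a median of 0.24. The marker list was chosen with earlier results of these data known, so its count is not an independent test against that share. The summed level of the 20 markers was 20673 to 22448 TPM in wild-type and 9434 to 13418 TPM in FAN1KO cisplatin kidneys. The organic anion transporters Slc22a6 (-2.04, SE 0.65, adjusted p = 0.0446, limma) and Slc22a8 (-1.76, SE 0.32, adjusted p = 0.00458) had the largest falls that also left the groups apart. The call of Slc22a6 was lost without wild-type cisplatin 1, 2 or 3 (adjusted p = 0.157, 0.0653 and 0.0551), without FAN1KO cisplatin 1 or 2 (0.168 and 0.129), with median-ratio scaling (0.0674), without a filter on low values (0.0638) and in the fit with a replicate block (0.0533). The count of 12 went down to 7 without wild-type cisplatin 1, 2 or 3, to 5 without FAN1KO cisplatin 1 and to 6 without FAN1KO cisplatin 2.

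The level of each gene was also set against the mean log2 level of these 20 markers in the same library. That mean was 8.81 to 9.16 in the other 9 libraries and 7.65, 7.84 and 8.26 in the FAN1KO cisplatin kidneys. Relative to it, Lrp2 stood at -1.21, -0.63 and -1.11 in wild-type and at -1.55, -1.53 and -1.32 in FAN1KO cisplatin kidneys, a difference of -0.48 with no overlap (exact permutation p = 0.1). Leaving out 1 of these 6 libraries gave -0.59 to -0.31, the smallest without wild-type cisplatin 2. Cubn stood at -3.36, -2.85 and -3.0 in wild-type and at -2.96, -3.07 and -2.96 in FAN1KO cisplatin kidneys, a difference of 0.073 with overlap (exact permutation p = 0.8). Lrpap1 differed by 0.11, also with overlap (exact permutation p = 0.2). On this scale Lrp2 was the one gene of the 8 that lay lower in every FAN1KO than in any wild-type cisplatin kidney, as was so for 0.521% of all genes tested. That share is small because the fall of the marker mean put 80.8% of all genes higher, so it does not make the fall of Lrp2 rare among proximal tubule genes. The markers Slc22a6 (-2.04) and Slc22a8 (-1.76), which are part of that mean, themselves fell further than Lrp2 between these groups. Against FAN1KO saline kidneys the FAN1KO cisplatin values of Lrp2 differed by -0.39 on this scale, with overlap (exact permutation p = 0.2).

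The other 5 genes stood higher on this scale in every FAN1KO cisplatin kidney than in any wild-type cisplatin kidney, and so did 80.8% of all genes tested. Because the marker mean fell, the median difference over all genes was 1.20 on this scale. The difference was 0.61 for Amn, 0.72 for Dab2, 1.16 for Ocrl, 1.20 for Clcn5 and 1.31 for Fcgrt (exact permutation p = 0.1 for each, the smallest the design allows), so Amn and Dab2 lay below the median of all genes and the other 3 near it. Fcgrt was at -1.69, -1.12 and -1.15 in wild-type and at 0.04, -0.05 and -0.04 in FAN1KO cisplatin kidneys. Other cells of the kidney also express several of these genes, and their share of each level was not tested.

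**Figure D3:**
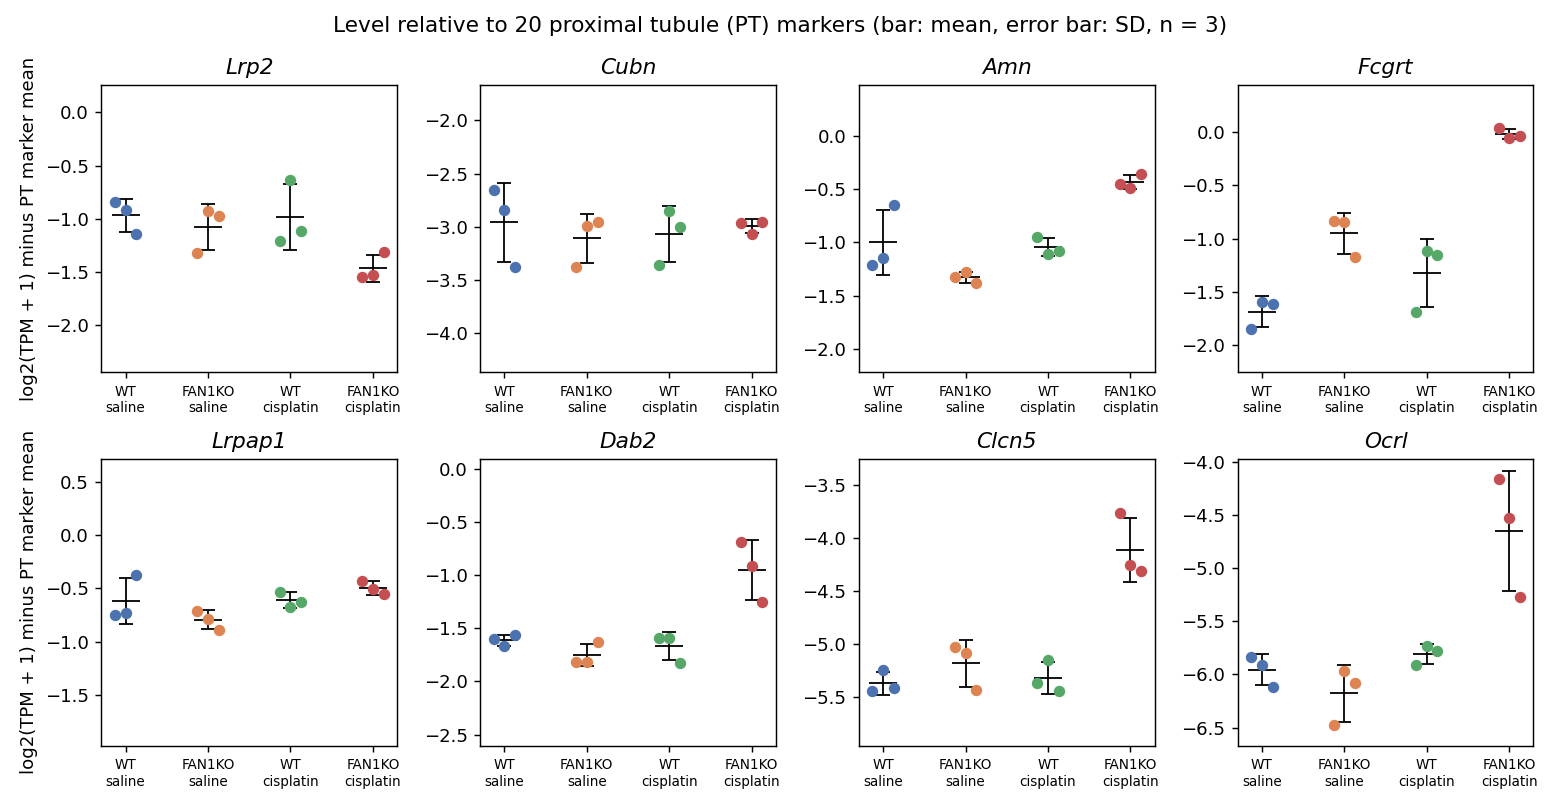
log2(TPM + 1) of each gene minus the mean log2(TPM + 1) of 20 proximal tubule (PT) markers (y axis, the same span of log2 units in each panel) in every library of the 4 groups (x axis). Points are libraries, the horizontal bar is the mean and the error bar the SD of 3. In FAN1KO cisplatin kidneys Lrp2 lay lower, Cubn and Lrpap1 overlapped the wild-type values, and the other 5 genes lay higher, as did 80.8% of all genes tested.

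Markers of tubule injury and of other cells moved as follows in the same comparison. All 10 tubule injury markers were called higher, with a median log2 fold change of 2.54 (9 with median-ratio scaling, median 2.25). Among them Krt20 rose by 4.58 (SE 0.54, adjusted p = 0.000595, limma) and Havcr1, which encodes KIM1, by 3.16 (SE 0.86, adjusted p = 0.0251). Havcr1 was at 19.6, 63.2 and 64.9 TPM in wild-type and at 373, 243 and 679 TPM in FAN1KO cisplatin kidneys, with an adjusted p of 0.0950 without wild-type cisplatin 1, 0.0784 without FAN1KO cisplatin 1 and 0.0657 without FAN1KO cisplatin 3. Of the macrophage markers 1 of 7 was called higher (Cd68, 1.56, adjusted p = 0.0499), with a summed level of 257 to 871 TPM in wild-type and 669 to 1467 TPM in FAN1KO cisplatin kidneys. Of 4 lymphocyte markers tested 1 was called higher (Cd8a, 0.87, adjusted p = 0.0428) and of 7 markers of the thick limb and distal nephron 1 (Aqp2, 1.39, adjusted p = 0.0455). Over all genes tested the share called higher was 19.6%, so counts of 1 in these short lists say nothing particular about these cells. The calls of Cd68, Cd8a and Aqp2 were each lost without 5 of the 6 libraries and with median-ratio scaling (adjusted p = 0.0589, 0.0826 and 0.0730), and held without FAN1KO cisplatin 3 for Cd68, wild-type cisplatin 3 for Cd8a and wild-type cisplatin 2 for Aqp2. With the 6 libraries of the comparison only they were lost as well (0.0911, 0.0835 and 0.0563), and each also under further settings. None of 5 podocyte, 6 endothelial and 6 fibroblast markers was called, and the endothelial markers had a median of -1.01. The part of tubule injury and of these other cells in the levels of the 8 genes was not tested.

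The kidney with the highest Lrp2, Cubn, Amn, Lrpap1 and Fcgrt of the FAN1KO cisplatin group was FAN1KO cisplatin 3, the one with high Y-linked RNA, and it also had the highest Havcr1. In the 8 libraries with low Y-linked RNA, Lrp2 differed by -1.75 between the genotypes under cisplatin (adjusted p = 0.00074, limma), Cubn by -1.17 (adjusted p = 0.0015), Lrpap1 by -0.90 (adjusted p = 0.00113) and Amn by -0.46 (adjusted p = 0.0111). Fcgrt differed there by 0.048 (adjusted p = 0.696), and Havcr1 lost its call (2.22, adjusted p = 0.130). These values rest on 2 kidneys in each group.

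The calls in the rest of the uptake pathway were read against those of all genes, which were 654 lower and 2931 higher, or 81.8% higher, in this comparison. These were 4.37% and 19.6% of all genes tested. Over 6 lists holding the clathrin coat, endosomes, acidification, lysosomes, other LDL receptor family members and ligands, 3 genes were called lower and 25 higher under cisplatin. With median-ratio scaling these counts were 8 and 9, against 1155 lower and 1389 higher, or 54.6% higher, over all genes, and with the Y-linked covariate they were 10 and 36. Without FAN1KO cisplatin 1 or 2 the count of higher genes was 14, without wild-type cisplatin 1 it was 16, and the count of lower genes was 1 without FAN1KO cisplatin 1.

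Of the clathrin coat and its adaptors, 7 of 15 genes were called higher and 0 lower (median 0.32), against 19.6% and 4.37% of all genes tested. Gipc1, whose product binds the tail of megalin, rose by 1.17 (SE 0.13, adjusted p = 0.000456, limma), and Ap2b1, a subunit of the AP-2 adaptor, by 0.83 (SE 0.16, adjusted p = 0.00559). With median-ratio scaling 3 of these 15 were called higher. Of 16 genes of endosomes and recycling 1 was called lower, Inpp5b (-0.73, SE 0.17, adjusted p = 0.0139), a phosphatase closely related to OCRL, and 2 were called higher, Rab11a (0.56, adjusted p = 0.0423) and Snx5 (0.41, adjusted p = 0.0356). Set against those shares of all genes, these counts say nothing particular about endosomes. With the scaling 2 of these 16 genes were called lower and 0 higher, so Rab11a and Snx5 lost their calls. Without FAN1KO cisplatin 1 the adjusted p was 0.0641 for Inpp5b, 0.154 for Rab11a and 0.128 for Snx5, and Inpp5b was also lost without wild-type cisplatin 1 (0.0542), Rab11a without wild-type cisplatin 1 or 2 or FAN1KO cisplatin 2 (0.141, 0.0810 and 0.127) and Snx5 without any library but wild-type cisplatin 1. Rab11a and Snx5 were also lost with the 6 libraries only (0.0523 and 0.0816) and without the trend (0.0532 and 0.0513), Rab11a without a filter (0.0543) and with the replicate block (0.0672), and Snx5 with voom (0.0591).

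Of 15 genes of endosome acidification 3 were called higher, among them the proton pump subunits Atp6v0a1 (0.64, SE 0.13, adjusted p = 0.00759, limma) and Atp6v0c (0.45, SE 0.12, adjusted p = 0.0217). Slc9a3, the sodium-proton exchanger of the brush border and early endosomes, fell by 0.92 on the log2 scale (SE 0.21, adjusted p = 0.0126). With the scaling 1 of these genes was called lower and 0 higher. Without it, the counts of 3 higher and 1 lower were near the 19.6% and 4.37% of all genes tested. The call of Slc9a3 was lost without FAN1KO cisplatin 1 or 2 (adjusted p = 0.0594 and 0.0525), and that of Atp6v0c without wild-type cisplatin 2 or FAN1KO cisplatin 2 (0.0683 and 0.0883). With the 6 libraries of the comparison only, both were lost (0.0599 and 0.0605). Of 15 lysosomal genes 8 were called higher and 0 lower (median 0.44), led by the proteases Ctsd (1.63, SE 0.16, adjusted p = 0.000235) and Ctsl (1.01, SE 0.18, adjusted p = 0.00455), and with the scaling 2 were called higher.

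Among 12 other members of the LDL receptor family, to which megalin belongs, 1 was called higher, Lrp10 (0.50, SE 0.082, adjusted p = 0.00273, limma), and 0 lower. With the scaling 2 were called lower and 0 higher. Of all genes tested 19.6% were called higher and 4.37% lower, so the 1 call without scaling says nothing particular about this family. Among 14 ligands of megalin or cubilin and B2m, 4 were called higher and 1 lower (median 0.70). Lcn2, an iron-carrying protein that is also a marker of tubule injury, rose by 4.41 (SE 0.64, adjusted p = 0.00152). Mt2, a metallothionein, rose by 2.48 (SE 0.58, adjusted p = 0.0135, and 0.0637 and 0.0522 without FAN1KO cisplatin 1 or 2). Apom, an apolipoprotein that binds megalin, fell by 1.59 on the log2 scale (SE 0.33, adjusted p = 0.0083, and 0.0502 with the 6 libraries of the comparison only). With the scaling 4 were called higher and 3 lower.

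**Figure D4:**
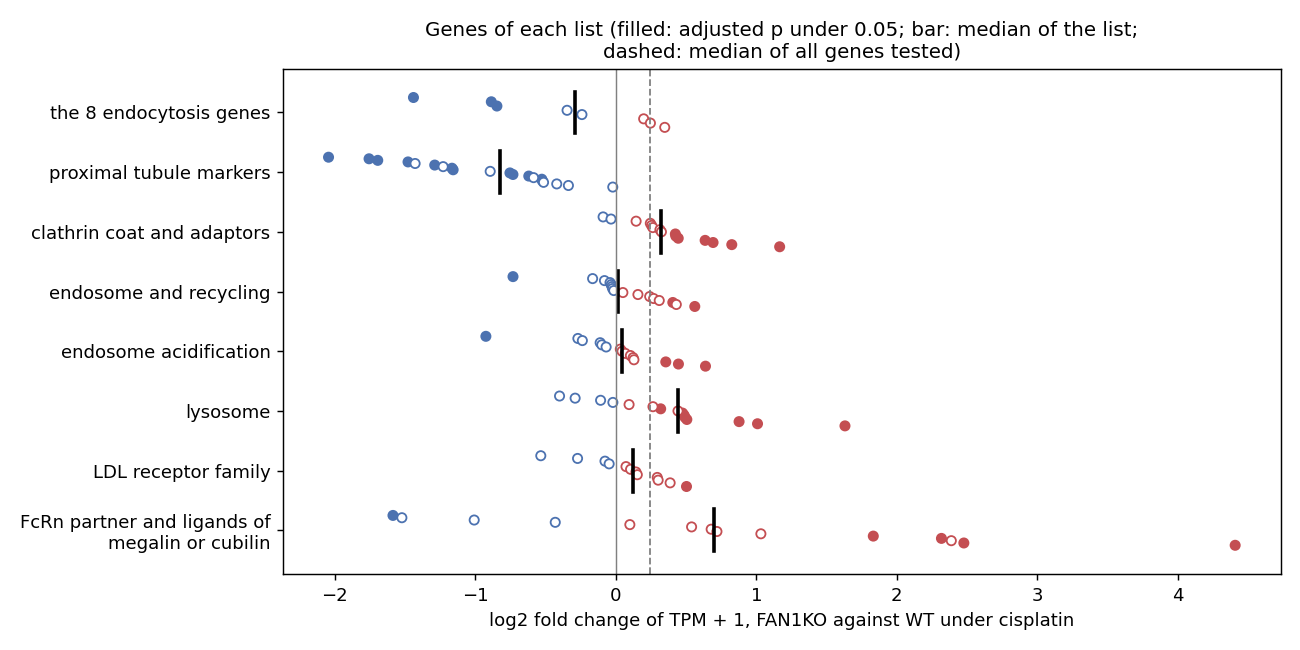
log2 fold change of TPM + 1 between FAN1KO and wild-type mice given cisplatin (x axis) for the genes of each list (y axis). Each circle is a gene, blue below and red above 0, filled where the adjusted p (limma) is under 0.05. Black bars are the medians of the lists, the solid grey line is 0 and the dashed line the median of all genes tested (0.24). The proximal tubule markers lie to the left, with a median of -0.82, and the medians of the clathrin and lysosomal genes are at 0.32 and 0.44, against 0.24 for all genes.

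The genes whose pattern over the 12 libraries was most like that of Lrp2 were Paqr9, Abat and Snx29. Likeness was measured as the root mean square difference of the centred log2 levels over 8425 genes with a mean of at least 10 TPM, and it was 0.166, 0.188 and 0.203. Paqr9 averaged 70.1 and 68.1 TPM under saline in wild-type and FAN1KO mice, and 71.7 and 22.9 TPM under cisplatin. Nearest to Cubn were L3hypdh (0.171), Cela1 (0.181) and Tln2 (0.182). Cela1 averaged 230.2, 219 and 223 TPM in those first 3 groups and 122 TPM in the last. Nearest to Amn were Krt10 (0.103), Ddt (0.111) and Dpp7 (0.131), and Ddt averaged 475, 436, 443 and 362 TPM in the 4 groups.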

How the data were processed

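Per-gene TPM (27179 rows, NCBI Gene numbers) were deposited by the authors, from 2×150 bp HiSeq reads of 12 kidneys. The submitters' notes name mm10 and limma, and the aligner and the counting are not given in the sources used here. Names, coordinates and promoters came from RefSeq GRCm38.p6, and overlaps from the GENCODE annotation. Whole reads were recovered from the TPM steps for all 232991 values above 0 (tolerance at most 0.1 read) and served for depth and 1 alternative. Tests were run on genes that reached 1 TPM in 3 or more libraries, using log2(TPM + 1), so that fold changes of low genes are understated. The model (limma 3.58.1, R 4.3.3) had 1 mean per group, used all 12 libraries and a mean-variance trend, and was two-sided, and p-values were adjusted by Benjamini-Hochberg across all tested genes, with calls under 0.05. Percent changes and ratios came from TPM. Both the recovery and the model were tested on simulated data. The model called 168 of 200 genes changed 2-fold, at a median absolute log2 fold change of 0.89, and 12 unchanged genes. Simulated kidneys of a group differed only by depth and random spread, so the test does not cover differences in Y-linked RNA or injury within a group. The genes and lists were chosen with earlier results of these data known. Named genes were the 8, Fan1, B2m, Havcr1, up to 2 called genes of each list with the largest rise and fall and no overlap, and the 3 nearest in pattern to Lrp2, Cubn and Amn. Alternatives were another pseudocount (0.1), no filter, median-ratio scaling, a replicate block, a Y-linked covariate, libraries with low Y-linked RNA, no trend, 6 libraries only, each library left out and, added after seeing the data, voom on recovered reads and the alternatives for the levels relative to proximal tubule markers, for the pathway counts and for the interaction of the listed genes.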

Additional observations from a re-analysis of the deposited data

Results flagged for a closer look

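For 9 of 30 genes (the 8 uptake genes, B2m, Havcr1 and the named genes of the lists) the effect of cisplatin differed between FAN1KO and wild-type kidneys by a test of the interaction itself (limma, all 12 libraries, adjusted p under 0.05), against 6.24% of all genes tested. Apart from the 8 uptake genes, most of the named genes were picked as called genes with the largest rise or fall under cisplatin, a contrast that is part of the interaction, so the count of 9 cannot be read against that share. Of the 8 uptake genes, Lrp2 had such a call, at -1.385 (adjusted p = 0.0390), and 4 of 20 proximal tubule markers had a called negative interaction as well (median of the 20 -0.96). The sodium-proton exchanger gene Slc9a3 had -1.188 (adjusted p = 0.0458). The other 7 had positive values. These were 1.471 for Ctsd (adjusted p = 0.0109), 5.804 for Lcn2 (adjusted p = 0.0111), 1.131 for Gipc1 (adjusted p = 0.0126) and 4.45 for Krt20 (adjusted p = 0.0143). They were 0.5289 for Lrp10 (adjusted p = 0.0291), 5.53 for Havcr1 (adjusted p = 0.0300) and 0.8239 for Atp6v0a1 (adjusted p = 0.0326). Under saline Havcr1 averaged 43.7 ± 20.8 TPM in wild-type and 12.1 ± 14.0 TPM in FAN1KO kidneys. This saline difference, which was not called, is part of the interaction of Havcr1. Leaving out 1 of the 12 libraries at a time, the calls of Ctsd, Lcn2, Gipc1 and Krt20 held, and that of Krt20 was lost with voom on recovered reads (adjusted p = 0.276). The call of Slc9a3 was lost without any one of 11 libraries (adjusted p = 0.0592 to 0.118), that of Lrp2 likewise without 11 (0.0519 to 0.0993), those of Atp6v0a1 and Lrp10 without any one of 9 (0.0507 to 0.0803 and 0.0509 to 0.0793) and that of Havcr1 without any one of 6 (0.0552 to 0.0777). With the replicate number as a block, the adjusted p was 0.0679 for Lrp2, 0.0548 for Havcr1, 0.0812 for Slc9a3, 0.0507 for Atp6v0a1 and 0.0627 for Lrp10. With median-ratio scaling it was 0.0742 for Slc9a3, 0.203 for Atp6v0a1 and 0.653 for Lrp10, and in the 8 libraries with low Y-linked RNA it was 0.0542 for Havcr1. Slc9a3 was also lost with a pseudocount of 0.1 (adjusted p = 0.0515) and without a filter (0.0570), and Slc9a3 and Lrp10 without the trend (0.0532 and 0.0549).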

How the results depend on the processing

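No pairing of kidneys by replicate number was seen: same-numbered libraries had mean correlations of their deviations of -0.24 to -0.14. In each comparison the kidney with high Y-linked RNA had a different number in the groups compared, so this check cannot exclude pairing. With the number as a replicate block Cubn had an adjusted p (limma) of 0.0554 under cisplatin. Of the 8 genes, 0 interactions were then called in place of 1 (Lrp2, adjusted p = 0.0679). Lrp2 and Lrpap1 stayed called lower in FAN1KO kidneys given cisplatin, against wild-type, in all alternatives run, with log2 fold changes of -1.75 to -1.26 and -1.13 to -0.75. With median-ratio scaling Clcn5 and Ocrl turned to -0.020 and -0.060 in that comparison, Ocrl and B2m to -0.020 and -0.041 for cisplatin in wild-type kidneys, and the interaction of Clcn5 to -0.31 (-0.045 with voom), and pathway calls were 8 lower and 9 higher in place of 3 and 25. With the Y-linked covariate 10 pathway genes were called lower and 36 higher. Of the 8 genes, 1 was then higher under saline (Fcgrt) and 1 within FAN1KO (Ocrl), and 2 had called interactions. In libraries with low Y-linked RNA, 6 pathway genes were lower. Of the 8 genes, 1 was higher there under saline, 1 was higher and 5 were lower within FAN1KO, and 4 had called interactions. In these libraries Ocrl turned to -0.086 for cisplatin in wild-type kidneys and Cubn relative to proximal tubule markers to -0.091. With the 6 libraries of the comparison only, 14 pathway genes were higher. The cause was not tested.

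Leaving out 1 library at a time, pathway calls ranged from 14 to 23 higher and 1 to 4 lower, proximal tubule markers from 5 to 12 lower and called interactions from 0 to 2. Under saline FAN1KO against wild-type ranged from -0.21 to 0.074 for Lrp2, -0.38 to 0.11 for Cubn and -0.22 to 0.012 for Dab2, and cisplatin in FAN1KO from -0.10 to 0.082 for Clcn5. Cisplatin in wild-type ranged from -0.26 to 0.016 for Lrp2, -0.48 to 0.010 for Cubn, -0.13 to 0.041 for Clcn5, -0.090 to 0.18 for Ocrl, -0.072 to 0.17 for B2m and -0.34 to 0.68 for Havcr1. The interaction ranged from -0.070 to 0.12 for Clcn5 and -0.28 to 0.076 for Amn, and Cubn relative to the markers from -0.071 to 0.18. With 1 kidney left out, the other 2 stand for a group, which limits every such value.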
